A study of Mus musculus with 35 samples.

Results

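Antigen-presentation and B lineage genes were followed through sorted CD8 T cells of mouse liver and spleen. The 10 genes were listed by name, with earlier results of these data known. Cd74, H2-Aa, H2-Ab1 and H2-Eb1 belong to the MHC class II pathway and Cd79a, Cd79b, Ighm and Igkc to the B cell antigen receptor. Jchain and Ly6d complete the set. All 10 were found among the 22865 genes of the count table, and 9 passed the filter on low counts that left 6174 genes for testing. Cd79a did not pass. The filter admits a gene that is high in a single group, so that counts of tested genes describe these 9 and not the full set. The same limit holds for every marker list below.

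The C57BL/6 mice were 13 months old and had been kept on the diets labelled ND, the normal diet, and CD-HFD, a choline-deficient high-fat diet that gives mice a fatty and inflamed liver. Liver CD8 T cells with the chemokine receptor CXCR6 (CXCR6pos) were sorted apart from those without it (CXCR6neg), and spleen cells were taken without the chemokine receptor CX3CR1 (CX3CR1neg). Under ND there were 6 CXCR6pos, 4 CXCR6neg and 5 spleen libraries, and under CD-HFD 5 CXCR6pos, 6 CXCR6neg and 6 spleen libraries. The labels tie no library to an animal and do not say whether replicates were separate animals or cultures, so that p-values measure only the spread between these libraries, which may be technical. Polyadenylated RNA was counted from the 3′ end, and levels are counts scaled to the size of the library (CPM), which was adjusted by TMM, the trimmed mean of M values.

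MHC class II molecules are pairs of an alpha and a beta chain that show peptides from ingested proteins to CD4 T cells. Dendritic cells, B cells and macrophages make them, whereas mouse T cells make little or none. Cd74 codes for the invariant chain, which fills the peptide groove and guides class II into the endosome. H2-Aa and H2-Ab1 code for the alpha and beta chain of I-A. H2-Eb1 codes for the beta chain of I-E, which C57BL/6 mice do not show on the cell surface because their alpha chain gene is defective. Ighm and Igkc are the constant regions of the immunoglobulin mu heavy chain and kappa light chain, Cd79a and Cd79b code for the signalling chains of the B cell receptor, and Jchain joins secreted IgM and IgA in plasma cells. Ly6d is a lipid-anchored surface antigen of early B lineage cells that plasmacytoid dendritic cells also carry.

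Class II genes are known for a shared promoter layout, an X box followed by a Y box, which binds the factors that recruit the class II transactivator CIITA. The sequences of H2-Aa and H2-Eb1 are shown because these genes sit in the same locus and their levels are compared throughout. They are the 200 bases before the gene start in the RefSeq promoter table (GRCm38.p6), with GCAAC, found at the start of the X box, and CTGATTGG, the Y box with its inverted CCAAT, in capitals.
H2-Aa (chr17:34287824-34288023, minus strand): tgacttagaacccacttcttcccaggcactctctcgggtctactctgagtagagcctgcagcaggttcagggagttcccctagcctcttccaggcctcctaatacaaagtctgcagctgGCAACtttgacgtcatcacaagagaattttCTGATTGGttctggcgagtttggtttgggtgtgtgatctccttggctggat
H2-Eb1 (chr17:34305667-34305866, plus strand): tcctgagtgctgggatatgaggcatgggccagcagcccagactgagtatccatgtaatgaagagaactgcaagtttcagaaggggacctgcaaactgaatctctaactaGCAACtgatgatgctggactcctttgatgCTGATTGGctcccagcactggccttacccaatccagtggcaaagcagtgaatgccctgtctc
In H2-Aa the pair of motifs started 81 and 51 bases before the gene start with 25 bases between them, and in H2-Eb1 91 and 62 bases before it with 24 between them. The 250 bases before the start were searched on either strand, with 15 to 35 bases between GCAAC and CTGATTGG. The pair was in 28 of 32851 promoters (0.0852%). CTGATTGG alone, on either strand, was in 1258 (3.83%). Of the 10 genes studied, 4 matched the table. Searched on the gene's strand only, 2 of those, H2-Aa and H2-Eb1, held the pair. Of 7 further class II genes searched in that way, 6 matched and 2 held it, H2-Oa with 25 bases between and H2-Eb2 with 24. A match describes letters in the window and was not tested as a binding site.

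In the genome (GRCm38, GENCODE M21, whole genes) the class II chains lie together on chromosome 17, with H2-Ab1 at 34257689 to 34269419, H2-Aa at 34282744 to 34287823 and H2-Eb1 at 34305867 to 34316674. The other genes are scattered. Cd74 lies on chromosome 18 (60803848 to 60812652), Ighm on chromosome 12 (113418558 to 113422730), Igkc on chromosome 6 (70726435 to 70726966) and Jchain on chromosome 5 (88519809 to 88527891). Ly6d lies on chromosome 15 (74762056 to 74763620), Cd79a on chromosome 7 (24897381 to 24902197) and Cd79b on chromosome 11 (106311341 to 106314762).

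Total counts ran from 15633 to 978896 per library, with group medians of 182006 to 523614. At this depth a single count was worth 49.2 CPM in the smallest library, ND CXCR6pos replicate 1. A list of 10 T cell genes summed to 7927 to 16510 CPM in every library, with the lowest sum in the ND CXCR6pos group. Identical counts for all 22865 genes, less than sampling noise apart, were listed for ND spleen replicate 6 and ND CXCR6neg replicate 1, and both were left out because their labels differ. Several further libraries stood apart. Cxcr6 was lowest among ND CXCR6pos libraries in replicate 6, at 201 CPM, and this library had far more of the class II genes, Ly6d and dendritic cell genes than the others of the group. Among ND CXCR6neg libraries replicate 4 had the highest Cxcr6, 450.0 CPM. In the spleen, libraries with neighbouring numbers shared immunoglobulin genes that the rest of the group had little of, as described with the spleen libraries.

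The class II genes were highest in the spleen, lower in liver CXCR6neg cells and lowest in liver CXCR6pos cells. Cd74, H2-Aa, H2-Ab1 and H2-Eb1 together made up 2991 to 6867 CPM in CD-HFD spleen and 2566 to 4984 in ND spleen. They summed to 1253 to 1440 CPM in CD-HFD CXCR6neg and 747 to 1828 in ND CXCR6neg. In CXCR6pos cells they summed to 248 to 414 CPM under CD-HFD and 217 to 1718 under ND, where the highest value was that of replicate 6. Between organs the spleen and liver sums did not overlap under either diet, and the ND and CD-HFD spleen groups did. In bulk samples, fewer cells of a type and less RNA per cell cannot be told apart.

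**Figure D1:**
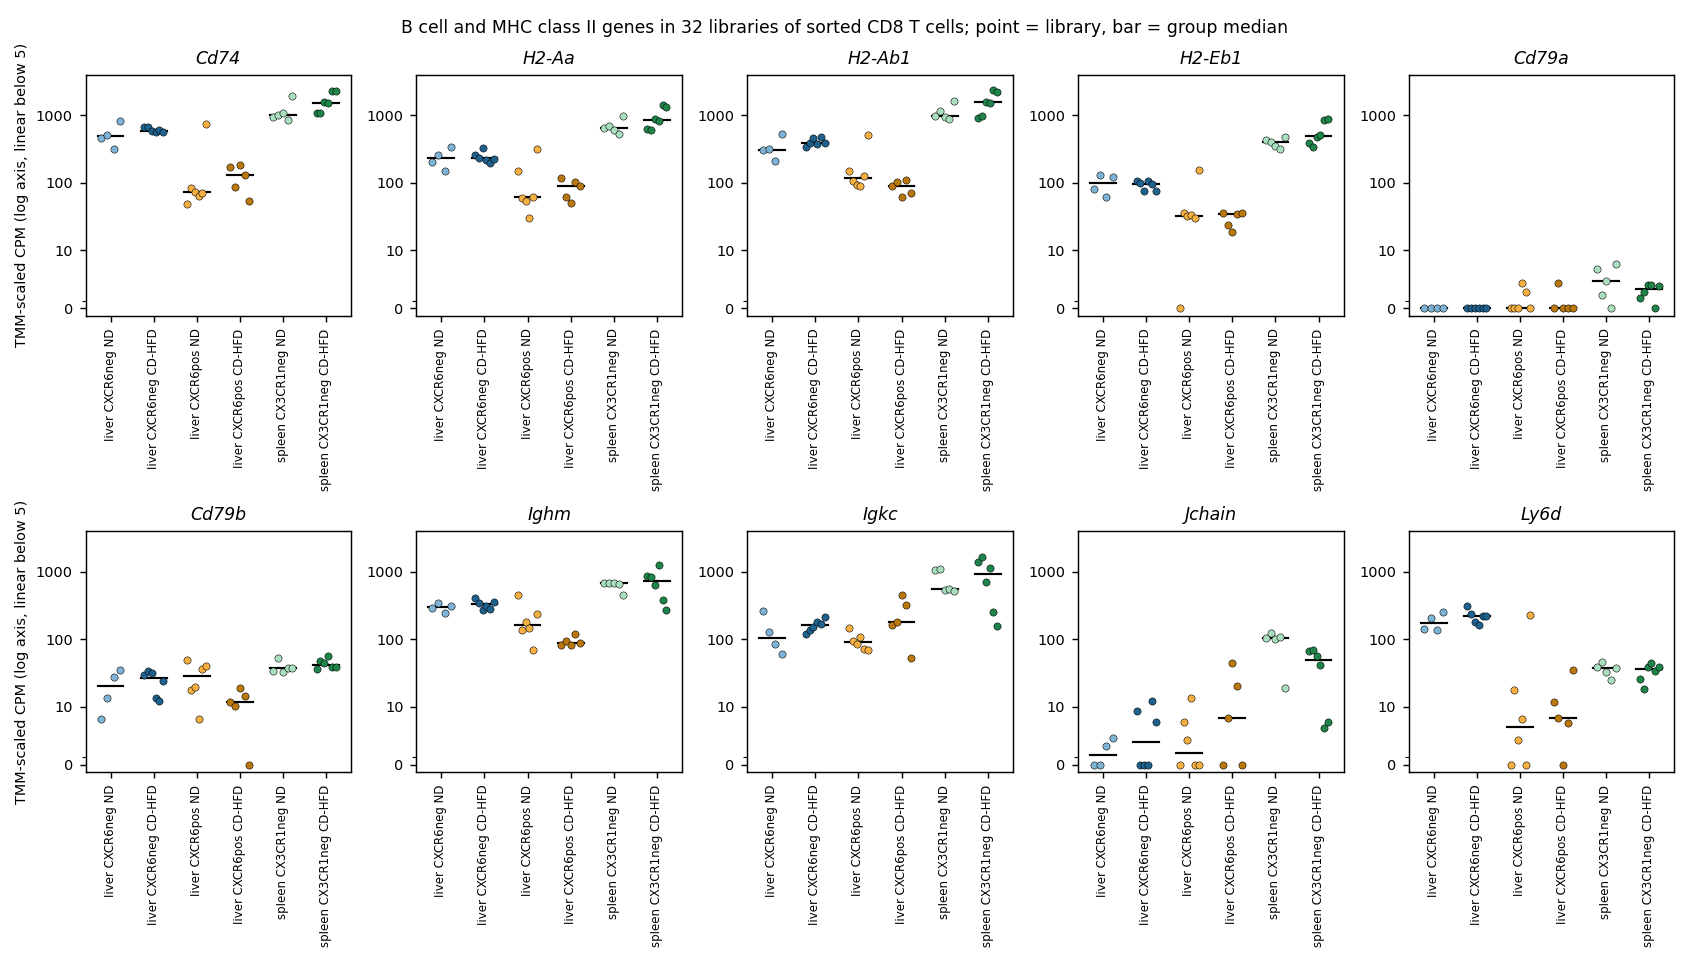
Each panel plots 1 gene, with TMM-scaled CPM on a log axis (linear below 5) against the 6 groups; points are libraries and bars are group medians. The class II genes and Ighm step down from spleen to CXCR6neg to CXCR6pos, Ly6d peaks in CXCR6neg, and Cd79a has 7 counts or fewer in any group.

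Cd74, the invariant chain, ranged narrowly in CD-HFD CXCR6neg, with a lowest, median and highest level of 568, 593 and 666 CPM. The CD-HFD CXCR6pos libraries held 171, 87.8, 181, 129.8 and 53.1 CPM. Every CXCR6neg library lay above every CXCR6pos library, with no overlap. Cd74 was 4.7-fold lower in CXCR6pos under CD-HFD (log2 fold change -2.23 ± 0.56, adjusted p = 0.00799, SE, n = 5 and 6, edgeR). Under ND the CXCR6neg libraries held 460.2, 515, 321 and 832 CPM and the CXCR6pos libraries had a lowest, median and highest of 49.2, 72.5 and 747 CPM. Replicate 6 alone, at 747 CPM, put the ND groups in overlap, since the other 5 CXCR6pos libraries were between 49.2 and 82.9 CPM. The ND difference did not pass (-1.27 ± 0.51, adjusted p = 0.471). Without that library it passed (-2.89 ± 0.38, adjusted p = 2.44e-05). Replicate 6 was singled out by its values of these same genes. Fits without it, here and below, therefore describe its weight and are no independent test.

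Cd74 levels were highest in the spleen. The lowest, median and highest level was 1067, 1530.0 and 2262 CPM in CD-HFD spleen, and the ND spleen libraries held 940.3, 1018, 1061, 852 and 1925 CPM. Under CD-HFD, CXCR6neg cells lay below the spleen without overlap (-1.39 ± 0.39, adjusted p = 0.0188, n = 6 and 6), a call that was lost without spleen replicates 5 and 6 (-1.08 ± 0.41, adjusted p = 0.105). Under ND the groups did not overlap either, but the difference did not pass (-1.09 ± 0.46, adjusted p = 0.19, n = 4 and 5). CXCR6pos cells were 12.3-fold lower than the spleen under CD-HFD (-3.63 ± 0.53, adjusted p = 4.22e-06) and 5.13-fold lower under ND (-2.36 ± 0.45, adjusted p = 0.000429). Without ND CXCR6pos replicate 6 the ND value was -3.97 ± 0.35, adjusted p = 1.88e-09.

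H2-Aa, the I-A alpha chain, had a lowest, median and highest level of 193, 229 and 323 CPM in CD-HFD CXCR6neg. The CD-HFD CXCR6pos libraries held 118, 60.8, 49.8, 104 and 88.4 CPM and did not overlap with them. The fold was smaller than for Cd74, with H2-Aa 2.87-fold lower in CXCR6pos (-1.52 ± 0.49, adjusted p = 0.0451). This call was lost whenever any 1 of the 11 libraries was left out, with adjusted p between 0.051 and 0.134. Under ND the CXCR6neg libraries held 200.1, 262, 151 and 344 CPM and the CXCR6pos libraries a lowest, median and highest of 30.1, 60.9 and 312 CPM. The ND groups overlapped through replicate 6, the highest. Their difference was -1.07 ± 0.45, adjusted p = 0.507 with that library and -2.13 ± 0.40, adjusted p = 0.00371 without it.

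H2-Ab1, the I-A beta chain, separated the fractions more clearly. Its lowest, median and highest level in CD-HFD CXCR6neg was 336, 386 and 483 CPM, and the CD-HFD CXCR6pos libraries held 88.6, 101, 62.2, 109.6 and 70.7 CPM. No library of 1 fraction reached the other, and H2-Ab1 was 4.23-fold lower in CXCR6pos (-2.08 ± 0.48, adjusted p = 0.00357). The ND CXCR6neg libraries held 307, 312, 213 and 531 CPM, against a lowest, median and highest of 90.2, 116 and 506 CPM in ND CXCR6pos. The ND difference was -0.80 ± 0.42, adjusted p = 0.65, and without replicate 6, which held 506 CPM, it was -1.67 ± 0.36, adjusted p = 0.0173.

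H2-Eb1, the I-E beta chain, followed the same order at fewer counts. It ranged from 76.1 to 106 CPM in CD-HFD CXCR6neg and from 18.7 to 35.4 CPM in CD-HFD CXCR6pos, without overlap. The difference of -1.66 ± 0.59, adjusted p = 0.0709 did not pass the threshold. ND CXCR6neg ranged from 61.8 to 131 CPM, and ND CXCR6pos from 0 to 153 CPM with replicate 6 the highest and the next library at 35.5. That library again put the ND groups in overlap, with a difference of -0.67 ± 0.48, adjusted p = 0.818 that did not pass. Without it the difference was -1.58 ± 0.46, adjusted p = 0.125 and did not pass either.

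Against the spleen, the I-A and I-E chains fell in both liver fractions and under both diets. H2-Aa had a lowest, median and highest level of 608, 861 and 1394 CPM in CD-HFD spleen and 649.6, 685, 595, 531 and 959 CPM in the ND spleen libraries. It was 3.82-fold lower in CXCR6neg under CD-HFD (-1.93 ± 0.32, adjusted p = 0.000102) and 2.82-fold lower under ND (-1.49 ± 0.38, adjusted p = 0.0127). The ND call was lost without ND CXCR6neg replicate 4 (adjusted p = 0.087). In CXCR6pos it was lower still, at -3.45 ± 0.42, adjusted p = 2.38e-07 under CD-HFD and -2.57 ± 0.37, adjusted p = 1.02e-05 under ND, the latter -3.62 ± 0.34, adjusted p = 7.01e-09 without ND CXCR6pos replicate 6.

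H2-Ab1 ranged from 911 to 2375 CPM in CD-HFD spleen and from 866 to 1630.1 CPM in ND spleen, above every liver library of the same diet. CXCR6neg cells were 3.96-fold below the spleen under CD-HFD (-1.98 ± 0.32, adjusted p = 5.49e-05) and 3.22-fold below it under ND (-1.69 ± 0.38, adjusted p = 0.00399). CXCR6pos cells were 16.7-fold below it under CD-HFD (-4.07 ± 0.43, adjusted p = 1.69e-08) and 5.61-fold below it under ND (-2.49 ± 0.36, adjusted p = 8.23e-06). Without ND CXCR6pos replicate 6 the ND value was -3.36 ± 0.32, adjusted p = 8.22e-09. H2-Eb1 ranged from 343 to 889 CPM in CD-HFD spleen and from 318 to 470.2 CPM in ND spleen. It had the largest fall of the 4 class II genes between spleen and CXCR6neg under CD-HFD (-2.56 ± 0.31, adjusted p = 7.09e-07), and fell under ND as well (-2.01 ± 0.37, adjusted p = 0.000368). In CXCR6pos it was at -4.22 ± 0.43, adjusted p = 8.81e-09 under CD-HFD and -2.68 ± 0.35, adjusted p = 1.53e-06 under ND, the latter -3.59 ± 0.34, adjusted p = 9.18e-09 without that replicate.

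Cd74 and H2-Aa kept similar proportions within a group of CXCR6neg or spleen libraries. The count of Cd74 divided by that of H2-Aa was between 1.8 and 3.12 in CD-HFD CXCR6neg and between 1.62 and 1.81 in CD-HFD spleen. In ND CXCR6neg it was between 1.97 and 2.42 and in ND spleen between 1.45 and 2.01. Replicate 6 of ND CXCR6pos had a ratio of 2.4 and replicates 1 to 5 ranged from 0.333 to 2.11. The ratio is of 3′ counts within a library and says nothing of the amounts of the 2 transcripts per cell.

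Ighm, the mu heavy chain, had a lowest, median and highest level of 273, 326 and 404 CPM in CD-HFD CXCR6neg. The CD-HFD CXCR6pos libraries held 82.7, 94.5, 80.9, 118 and 88.4 CPM, all below every CXCR6neg library. Ighm was 3.42-fold lower in CXCR6pos (-1.77 ± 0.40, adjusted p = 0.00259). The ND CXCR6neg libraries held 287, 343, 245 and 312 CPM and ND CXCR6pos a lowest, median and highest of 69, 160.1 and 443 CPM. Those groups overlapped at the highest value, which rests on 9 counts in the smallest library, replicate 1. The ND difference did not pass (-0.89 ± 0.36, adjusted p = 0.48), nor did it without replicates 1 and 6 (-1.21 ± 0.39, adjusted p = 0.191).

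In the spleen Ighm varied widely. CD-HFD spleen had a lowest, median and highest of 273, 729.9 and 1255 CPM, and the ND spleen libraries held 665, 683, 667, 664 and 445 CPM. CXCR6neg cells lay 2.15-fold below the spleen under CD-HFD (-1.10 ± 0.27, adjusted p = 0.00545), although spleen replicates 5 and 6 fell among the liver values. Under ND the groups did not overlap (-1.11 ± 0.32, adjusted p = 0.0291), and the call was lost in 7 of the 9 fits that left out 1 library, with adjusted p up to 0.121. CXCR6pos cells were lower than the spleen under CD-HFD (-2.88 ± 0.36, adjusted p = 2.87e-07) and under ND (-2.01 ± 0.31, adjusted p = 2.23e-05).

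Cd79b, a signalling chain of the B cell receptor, was low in every group. It ranged from 12.1 to 33.9 CPM in CD-HFD CXCR6neg, from 0 to 18.7 in CD-HFD CXCR6pos, from 6.67 to 35.4 in ND CXCR6neg and from 6.68 to 49.2 in ND CXCR6pos. The value of 49.2 CPM rests on a single count in the smallest library, ND CXCR6pos replicate 1. In CD-HFD and ND spleen it ranged from 35.6 to 56.5 and from 32.3 to 52.9 CPM. The liver groups overlapped with each other. Its 1 call was in CD-HFD CXCR6pos against spleen (-1.75 ± 0.39, adjusted p = 0.000144), where the groups did not overlap, and it was not called between the liver fractions (-0.98 ± 0.47, adjusted p = 0.2 under CD-HFD). Cd79a, the partner chain, had 0, 1, 0 and 2 counts in CD-HFD CXCR6neg, CD-HFD CXCR6pos, ND CXCR6neg and ND CXCR6pos. It had 7 counts in CD-HFD spleen and 5 in ND spleen. A count of 0 allows up to 2.17 CPM (without TMM) over the CD-HFD CXCR6neg group and 2.66 over ND CXCR6neg (3 counts of the group's total, counting error only), so that a difference in Cd79a was not detectable at this depth.

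Igkc, the kappa light chain, was not called between the liver fractions. Its lowest, median and highest level was 119, 161 and 213 CPM in CD-HFD CXCR6neg, and the CD-HFD CXCR6pos libraries held 159, 179, 454, 320.3 and 53.1 CPM. The groups overlapped, replicate 3 was the highest of CXCR6pos, and the difference did not pass (0.64 ± 0.57, adjusted p = 0.597). The ND CXCR6neg libraries held 260.1, 126, 84.1 and 60.2 CPM, against a lowest, median and highest of 67.9, 89.1 and 148 CPM in ND CXCR6pos, and the groups overlapped (-0.48 ± 0.72, adjusted p = 0.959). The count of Igkc divided by that of Ighm was 1.93, 1.89, 5.62, 2.71 and 0.6 in the CD-HFD CXCR6pos libraries and between 0.295 and 0.61 in CD-HFD CXCR6neg. In replicate 5 of CD-HFD CXCR6pos, the lowest, the ratio rests on 3 and 5 counts. The ratio was not tested between groups.

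The lambda chain gene Iglc3 had its higher liver level in CXCR6neg. It ranged from 57.1 to 118 CPM in CD-HFD CXCR6neg and from 0 to 17.7 CPM in CD-HFD CXCR6pos, a difference of -4.23 ± 1.52, adjusted p = 0.0747 that did not pass. In ND CXCR6pos, replicate 6 held 88.1 CPM and the other 5 libraries between 0 and 10.8 CPM.

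In the spleen Igkc had a lowest, median and highest of 156, 918 and 1643 CPM under CD-HFD, and the ND libraries held 1037, 1074, 527, 560.1 and 520.4 CPM. CXCR6neg cells were 5.6-fold lower under CD-HFD (-2.48 ± 0.46, adjusted p = 0.000311), with overlap at spleen replicate 6. Under ND they were 6.49-fold lower without overlap (-2.70 ± 0.57, adjusted p = 0.00207). CXCR6pos cells were lower under CD-HFD (-1.84 ± 0.46, adjusted p = 0.00323), a call lost with neighbouring libraries summed (adjusted p = 0.0778) or with only those groups in the fit (adjusted p = 0.0783), and under ND (-3.18 ± 0.52, adjusted p = 5.56e-05).

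Jchain, the plasma cell joining chain, was near its detection limit in the liver. It ranged from 0 to 12.1 CPM in CD-HFD CXCR6neg, from 0 to 43.6 in CD-HFD CXCR6pos, from 0 to 3.54 in ND CXCR6neg and from 0 to 13.4 in ND CXCR6pos. The ND spleen libraries held 102, 123, 100.4, 107 and 18.8 CPM and CD-HFD spleen a lowest, median and highest of 4.86, 48.4 and 68.9 CPM. Replicate 5 of ND spleen and replicates 5 and 6 of CD-HFD spleen were the low ones. Jchain was lower in CXCR6neg than in spleen under CD-HFD (-3.55 ± 0.79, adjusted p = 0.00239) and under ND (-5.45 ± 0.89, adjusted p = 8.49e-05). Between the liver fractions under CD-HFD it did not pass (1.92 ± 1.16, adjusted p = 0.372). It was also lower in ND CXCR6pos than in ND spleen (-4.63 ± 0.67, adjusted p = 9.35e-06), and under CD-HFD that difference did not pass (-1.63 ± 0.63, adjusted p = 0.0569). Without spleen replicates 5 and 6 it passed (-1.93 ± 0.38, adjusted p = 2.12e-05). The highest liver value, 43.6 CPM in CD-HFD CXCR6pos replicate 3, rests on 7 counts and was in the library with the most Igkc of its group.

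Ly6d stood apart from the other genes, being highest in liver CXCR6neg cells and not in the spleen. CD-HFD CXCR6neg had a lowest, median and highest of 163, 218 and 310.4 CPM, and the ND CXCR6neg libraries held 140.1, 208, 136 and 248 CPM. The CD-HFD CXCR6pos libraries held 11.8, 6.75, 0, 5.77 and 35.4 CPM. ND CXCR6pos replicates 1 to 5 held 0, 17.8, 3.21, 6.68 and 0 CPM and replicate 6 held 224 CPM. Apart from that library, every CXCR6pos library lay below every CXCR6neg library. Ly6d was 27.2-fold lower in CXCR6pos under CD-HFD (-4.77 ± 0.90, adjusted p = 0.000459). Under ND it was at -1.71 ± 0.58, adjusted p = 0.352 with all libraries and -5.14 ± 0.40, adjusted p = 5.79e-20 without replicate 6.

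Spleen levels of Ly6d were between those of the liver fractions. CD-HFD spleen ranged from 18.3 to 43.9 CPM and ND spleen from 24.6 to 46.1 CPM. CXCR6neg cells held 7.16-fold more than the spleen under CD-HFD (2.84 ± 0.52, adjusted p = 0.000309) and 5.1-fold more under ND (2.35 ± 0.61, adjusted p = 0.0152), without overlap. The ND call was lost without ND CXCR6neg replicate 5 (adjusted p = 0.0708) or ND spleen replicate 4 (adjusted p = 0.0535), and with DESeq2 (adjusted p = 0.062). CXCR6pos cells did not differ from the spleen past the threshold under CD-HFD (-1.93 ± 1.22, adjusted p = 0.281). Under ND the estimate was 0.64 ± 0.68, adjusted p = 0.641, and without replicate 6 it turned to -2.79 ± 0.51, adjusted p = 1.04e-05, lower in CXCR6pos.

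The set was chosen with earlier results of these data known, so the shares set beside its counts are descriptions. In CXCR6pos against CXCR6neg under CD-HFD, 5 of the 9 tested genes were called lower and 0 higher. Of all 6174 genes, 11.1% were called in either direction and 6.38% lower. The 5 genes are named next. They were Cd74, H2-Aa, H2-Ab1, Ighm and Ly6d, and the median log2 fold change of the 9 was -1.66 against 0.00 over all genes. Under ND 0 of 9 were called by edgeR, where 0.0324% of all genes were (4 of the 9 had an unadjusted p under 0.05, and DESeq2 called 0). Without ND CXCR6pos replicate 6, 4 were called, all lower, where 0.958% of 6056 genes were. These were Cd74, H2-Aa, H2-Ab1 and Ly6d, and the same 4 were called without replicates 1 and 6. Since replicate 6 was singled out by its values of these genes, the counts without it are descriptions.

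Against the spleen, CXCR6neg cells under CD-HFD had 7 of 9 genes lower and Ly6d higher, where 10.4% of all genes were called (4.71% lower and 5.73% higher). Under ND, 6 were lower and Ly6d was higher, where 6.87% of all genes were called (2.14% lower and 4.73% higher). CXCR6pos cells had 7 of 9 genes called lower than the spleen and 0 called higher under each diet. Of all genes, 25.7% were called under CD-HFD (13.3% lower) and 14.4% under ND (6.98% lower). These comparisons share the spleen libraries within a diet. With the library held in 2 identical columns kept in the ND CXCR6neg group, 3 of the 9 were called between CXCR6neg and spleen under ND, with H2-Aa, H2-Ab1, H2-Eb1 and Ly6d lost. With it kept in both groups 2 were called, Igkc and Jchain. The shares of all genes called in these 2 fits are not given here. The median log2 fold change of the 9 was -1.93 and -1.49 for CXCR6neg and -2.88 and -2.49 for CXCR6pos, under CD-HFD and ND, against medians over all genes between -0.02 and 0.00.

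**Figure D2:**
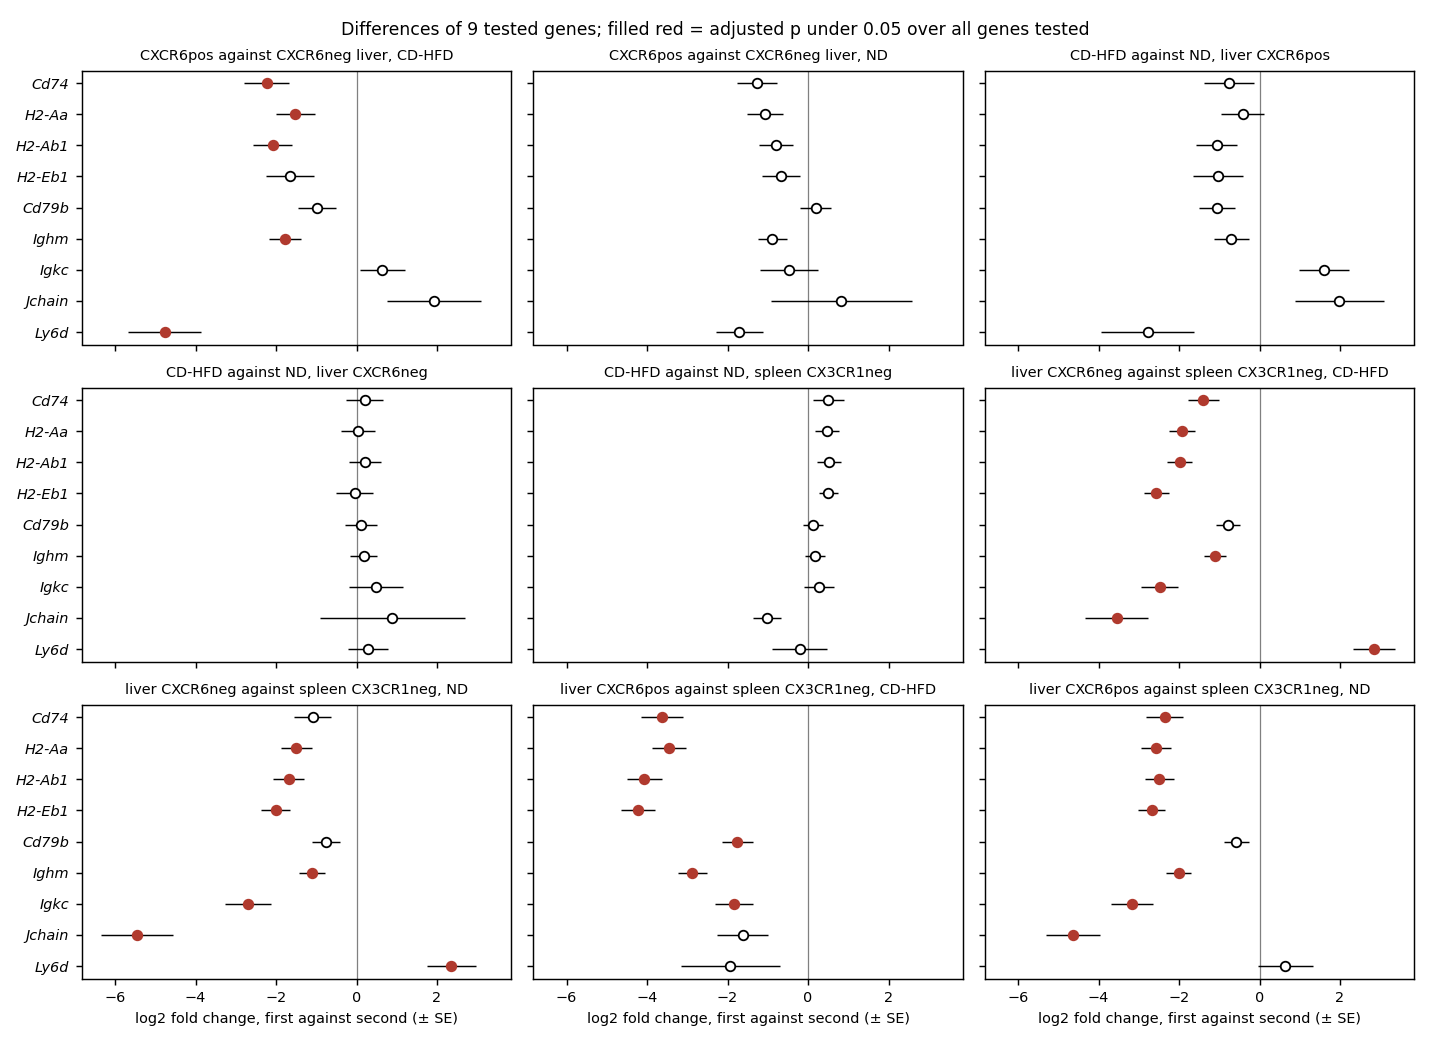
Each panel shows 1 of 9 comparisons, with log2 fold changes ± SE of the 9 tested genes on the x axis; red points passed an adjusted p of 0.05 and open points did not. Ly6d is to the right of 0 in both comparisons of CXCR6neg with spleen, and no point is filled in the 3 diet comparisons.

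By edgeR, none of these genes was called between the diets in any fraction. In CXCR6pos cells 0 of 9 passed in edgeR, where 11.3% of all genes did (4 of 9 at an unadjusted p under 0.05, and DESeq2 called 1, Igkc). In CXCR6neg cells 0 of 9 passed, where 0.47% of all genes did (0 of 9 unadjusted, DESeq2 0). In the spleen 0 of 9 passed, where 0.0324% did (2 of 9 unadjusted, DESeq2 0). For CXCR6neg cells Cd74 was at 0.20 ± 0.47, adjusted p = 0.974, H2-Ab1 at 0.22 ± 0.40, adjusted p = 0.952 and Ly6d at 0.28 ± 0.49, adjusted p = 0.95. The largest estimates there were Jchain at 0.89 ± 1.81, adjusted p = 0.966 and Igkc at 0.48 ± 0.67, adjusted p = 0.92.

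In CXCR6pos cells the direction of the diet estimate turned with 1 library for Cd74, H2-Aa and Ly6d, without passing either way. Cd74 was at -0.76 ± 0.61, adjusted p = 0.54 with all libraries and 0.86 ± 0.46, adjusted p = 0.318 without ND replicate 6. H2-Aa was at -0.42 ± 0.54, adjusted p = 0.744 with it and 0.65 ± 0.48, adjusted p = 0.523 without it. Ly6d was at -2.78 ± 1.15, adjusted p = 0.14 with it and 0.67 ± 0.79, adjusted p = 0.738 without it. Ighm was at -0.70 ± 0.43, adjusted p = 0.385 and Igkc at 1.60 ± 0.62, adjusted p = 0.104, lower and higher under CD-HFD without passing. In the spleen Cd74 was at 0.50 ± 0.38, adjusted p = 1 and Jchain at -1.01 ± 0.35, adjusted p = 0.935.

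The fall from CXCR6neg to CXCR6pos was called under CD-HFD and, with all libraries, not under ND, and the test of that difference called 0 of the 9 genes, where 1.44% of all genes were called (1 of 9 at an unadjusted p under 0.05, DESeq2 0). For Cd74 the interaction was -0.96 ± 0.77, adjusted p = 0.739, for H2-Ab1 -1.28 ± 0.65, adjusted p = 0.476 and for Ly6d -3.06 ± 1.27, adjusted p = 0.324. Without ND CXCR6pos replicate 6 these became 0.65 ± 0.53, adjusted p = 0.769, -0.42 ± 0.53, adjusted p = 0.898 and 0.37 ± 0.77, adjusted p = 0.949. The interaction of diet with organ, over CXCR6neg and spleen cells, called 0 of 9, and 0% of all genes (0 of 9 unadjusted, DESeq2 0).

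Other genes of the class II pathway were read from a list of 15, of which 10 passed the filter. Between the liver fractions under CD-HFD the list had a median log2 fold change of -0.95 against 0.00 over all genes. None was called higher in CXCR6pos and 3 were called lower, where 6.38% of all genes were. They were H2-DMb1 (-3.06 ± 0.63, adjusted p = 0.000149) and H2-DMa (-1.29 ± 0.28, adjusted p = 0.00031), the chains of the peptide exchange factor H2-DM, and Ctss (-0.87 ± 0.17, adjusted p = 3.85e-05), the protease that trims the invariant chain. Under ND 0 of the 10 were called between the fractions. H2-DMa was also lower under CD-HFD than ND in CXCR6pos (-1.11 ± 0.28, adjusted p = 0.00214), the 1 call of the list in a diet comparison. This call was not tested without ND CXCR6pos replicate 6, which had the highest sum of the list in its group (445 CPM). CXCR6neg cells were lower than the spleen in 3 under CD-HFD and 1 under ND, where 4.71% and 2.14% of all genes were lower. Cd83, a surface protein of mature antigen-presenting cells, was among them under both diets (-1.65 ± 0.41, adjusted p = 0.00224 and -2.23 ± 0.60, adjusted p = 0.00807). H2-Ob (-1.17 ± 0.36, adjusted p = 0.0197) and H2-Oa (-0.89 ± 0.30, adjusted p = 0.0346), the chains of the exchange inhibitor H2-DO, were the others under CD-HFD. CXCR6pos cells were lower than the spleen in 7 under CD-HFD and 6 under ND, where 13.3% and 6.98% of all genes were lower. None of the 10 was called higher in any of the 9 comparisons.

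Markers of whole cell types were read beside these results. Genes of plasmacytoid dendritic cells, a list of 16 that holds Siglech, Ccr9, Tcf4 and Spib, summed to 1141 to 1701 CPM in CD-HFD CXCR6neg and 689.9 to 1385 in ND CXCR6neg. They summed to 159 to 293 CPM in CD-HFD CXCR6pos, where Ccr9, Spib, Smim5 and Cd300c had no count. In ND CXCR6pos the sums were 184 to 246 CPM in replicates 1 to 5 and 1296 in replicate 6. Spleen libraries summed to 360.3 to 599 CPM. Of 13 tested, 12 were lower in CXCR6pos than in CXCR6neg under CD-HFD, where 6.38% of all genes were. In CXCR6neg against the spleen, 10 were higher under CD-HFD and 7 under ND, where 5.73% and 4.73% of all genes were. The filter admits genes that are high in 1 group, here CXCR6neg, so these directions were partly set in advance. Both counts are descriptions. The T cell list had 5 of 10 genes called higher in CXCR6pos than in CXCR6neg under CD-HFD and 0 called lower, where 4.76% of all genes were higher. Klk1 (3.35 ± 0.48, adjusted p = 1.17e-06) and Siglech (3.41 ± 0.53, adjusted p = 3.8e-05), a lectin of these cells, had the smallest p-values of the plasmacytoid list for CXCR6neg against the spleen under CD-HFD.

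The 11 libraries with the most Siglech were also the 11 with the most Ly6d, the 10 CXCR6neg libraries and ND CXCR6pos replicate 6. Within groups, with each group's mean taken off, Pearson's r between Ly6d and Siglech was 0.658 over 32 libraries, which share depth and sort, and 0.214 over 31 without that replicate. Siglech ranged from 123 to 241 CPM in CD-HFD CXCR6neg and from 0 to 12.4 CPM in CD-HFD CXCR6pos. The ND CXCR6neg libraries held 147, 158, 64.3 and 206 CPM, and ND CXCR6pos replicate 6 held 133 CPM. The part of such cells in the levels of Ly6d, Cd74 or the other genes was not tested.

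**Figure D3:**
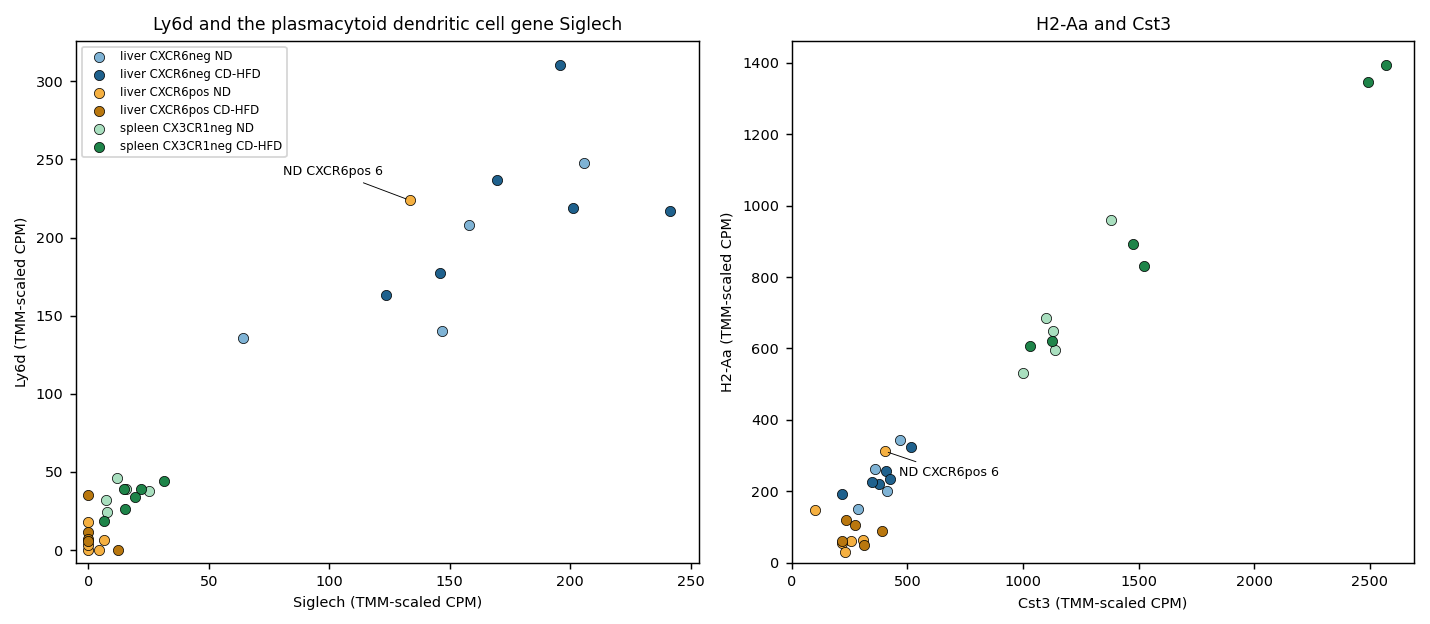
Each point is a library; the left panel sets Ly6d against Siglech and the right panel H2-Aa against Cst3, all in TMM-scaled CPM, coloured by group. Libraries high in Siglech are high in Ly6d, among them ND CXCR6pos replicate 6, while H2-Aa and Cst3 are both highest in the spleen.

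Spleen libraries held more Cst3 and Naaa. The list of 12 conventional dendritic cell genes, such as Cst3, Naaa and Clec9a, summed to 1491 to 3016 CPM in CD-HFD spleen and 1409 to 1737 in ND spleen. Its sums were 676 to 888 CPM in CD-HFD CXCR6neg, 814 to 1254 in ND CXCR6neg, 300.4 to 424 in CD-HFD CXCR6pos and 366 to 873 in ND CXCR6pos. Cst3, a protease inhibitor gene that dendritic cells make in large amounts but many cells express, held 69.1% to 86.5% of the sum in the CD-HFD spleen libraries. The other 11 genes summed to 390.6 to 460.6 CPM in CD-HFD spleen and 346 to 462.5 in ND spleen. In CXCR6neg they summed to 374 to 479 under CD-HFD and 503 to 840.4 under ND. Without Cst3 the sum was thus not highest in the spleen, but it holds Ccr7, which naive T cells also express. It therefore does not measure dendritic cells alone. Cst3 was lower in CXCR6neg than in spleen (-2.10 ± 0.22, adjusted p = 3.69e-08 under CD-HFD), and so was Naaa (-2.32 ± 0.31, adjusted p = 1.67e-09). Ccr7 was higher in CXCR6neg than in spleen under ND (0.93 ± 0.29, adjusted p = 0.048). The transcription factor Zbtb46 had no count in CD-HFD CXCR6neg, CD-HFD CXCR6pos or ND CXCR6neg. Macrophage and Kupffer cell genes summed to 444 to 540.1 CPM in CD-HFD CXCR6neg and 30.4 to 106 in CD-HFD CXCR6pos. Of the 3 tested in that list, Fcer1g (-2.22 ± 0.31, adjusted p = 1.8e-08) and Tyrobp (-4.45 ± 0.65, adjusted p = 1.44e-05), adaptor genes that NK cells and plasmacytoid dendritic cells also express, fell in CXCR6pos. The Kupffer cell markers Clec4f and Timd4 and the receptor Csf1r had no count in either.

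The B cell gene Ms4a1, which codes for CD20, was at or near 0. It had 0 counts in CD-HFD CXCR6neg and was at most 13.7 CPM in any library. Of 24 further B cell genes, 23 were in the table, 3 passed the filter (Iglc2, Iglc3 and Cd72), and Ms4a1, Blk, Cr2 and Vpreb3 had no count in CD-HFD CXCR6neg. The list summed to 247 to 410.2 CPM in CD-HFD CXCR6neg, 174 to 331 in CD-HFD CXCR6pos, 238 to 857 in CD-HFD spleen and 312 to 1004 in ND spleen. The 14 plasma cell genes summed to 279 to 352 CPM in CD-HFD CXCR6neg and 248 to 371 in CD-HFD CXCR6pos, with the receptor gene Tnfrsf17 at 0 in every group but CD-HFD spleen. Of the 14, 8 had a count in CD-HFD CXCR6neg and 5 in CD-HFD CXCR6pos, where the immunoglobulin genes of the list were all at 0. Between these groups 4 were tested, with 1 higher and 1 lower in CXCR6pos, where 11.1% of all genes were called. In the 9 comparisons 3 calls fell on the B cell list below the spleen level, Iglc2 in both liver fractions and Iglc3 in CXCR6pos, all under ND. The ND spleen level of both genes rested on replicates 1 and 2, with 94.3 and 125 CPM of Iglc2 against 14.3 to 37.6 in the other 3, and 396 and 495 CPM of Iglc3 against 10.7 to 62.7. Without that pair the calls were not tested. Cd72 was higher in ND CXCR6pos than in ND spleen (0.42 ± 0.15, adjusted p = 0.0493).

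**Figure D4:**
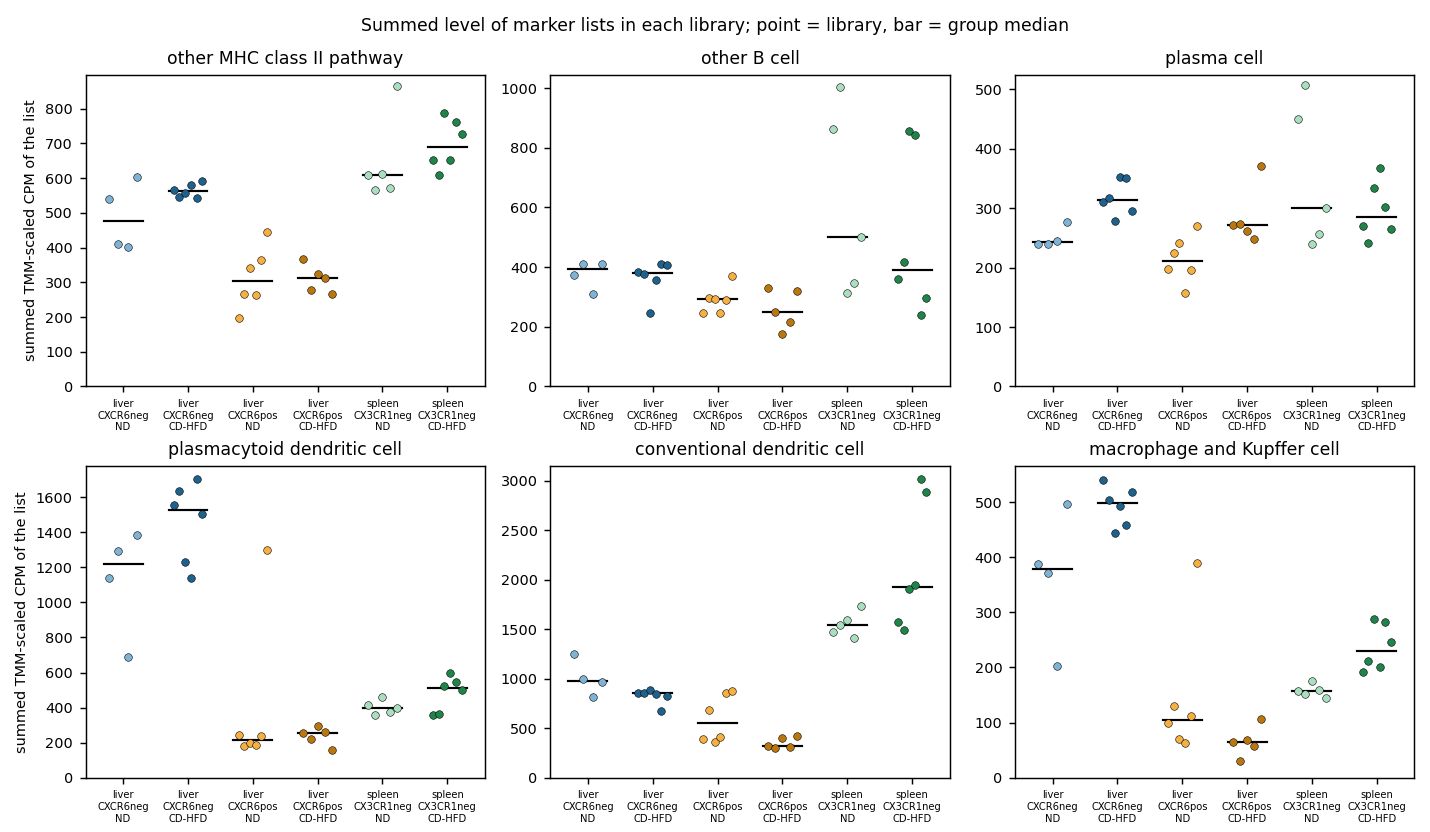
Each panel plots the summed TMM-scaled CPM of 1 marker list in each library (points) by group, with group medians as bars. Plasmacytoid dendritic cell genes peak in CXCR6neg libraries and ND CXCR6pos replicate 6, and the conventional dendritic cell sum peaks in the spleen, where Cst3 makes up most of it.

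In some spleen libraries the class II genes went 1 way and Ighm, Igkc and Jchain the other. Replicates 5 and 6 of CD-HFD spleen held 1394 and 1346 CPM of H2-Aa, the highest of all libraries, and 374 and 273 CPM of Ighm, the lowest of the spleen. Their Igkc was at 253 and 156 CPM and their Jchain at 4.86 and 6.01 CPM. Replicate 5 of ND spleen likewise had the highest H2-Aa of its group, 959 CPM, and the lowest Ighm and Jchain. After the group mean was subtracted from log2 CPM, H2-Aa and Jchain had a Pearson correlation of -0.926 over the 11 spleen libraries. H2-Aa and Igkc had -0.808, and H2-Aa and Cst3 had 0.959. Among the 20 liver libraries without ND CXCR6pos replicate 6, H2-Aa and Cst3 had -0.101. These correlations are descriptions over libraries that share sequencing and, in the spleen, the 3 libraries just named.

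Immunoglobulin genes were shared by spleen libraries with neighbouring numbers, a pattern seen in the data and read from genes chosen after their values were seen. Iglc1 was at 432 and 405 CPM in CD-HFD spleen replicates 3 and 4 and at 4.86 to 15.1 CPM in the other 4. The lambda variable segment Iglv1 was at 77.9 and 75.3 CPM in the same pair. In ND spleen, replicates 1 and 2 held 396 and 495 CPM of Iglc3 and 107 and 183 CPM of Ighg2b, which was at 0 to 6.27 CPM in the other 3. Over all tested genes, log2 CPM centred on the group mean, which by construction makes such correlations negative on average, gave a mean of -0.191 over the 15 pairs of CD-HFD spleen libraries and -0.233 over the 10 ND pairs. CD-HFD replicates 1 and 2 were at 0.213, the highest of the 15, with 3 and 4 at -0.074 and 5 and 6 at -0.2. ND replicates 1 and 2 were at -0.096, and the highest ND pair was 2 and 4 at -0.016. Whether such libraries share an animal cannot be read from the labels. With libraries numbered 1 and 2, 3 and 4, and 5 and 6 of a group summed, which leaves 3 samples a group, CXCR6neg cells differed from the spleen in 5 of the 9 genes under CD-HFD and 3 under ND, where 6.56% and 4.56% of 7541 genes were called. Lost were Cd74, Ighm and Jchain under CD-HFD and H2-Aa, H2-Ab1, Ighm and Igkc under ND. CXCR6pos against CXCR6neg under CD-HFD then gave 3 of 9, H2-Ab1, Ighm and Ly6d, where 7.32% were called, and Cd74 (adjusted p = 0.0592) and H2-Aa (0.146) were lost.

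**Figure D5:**
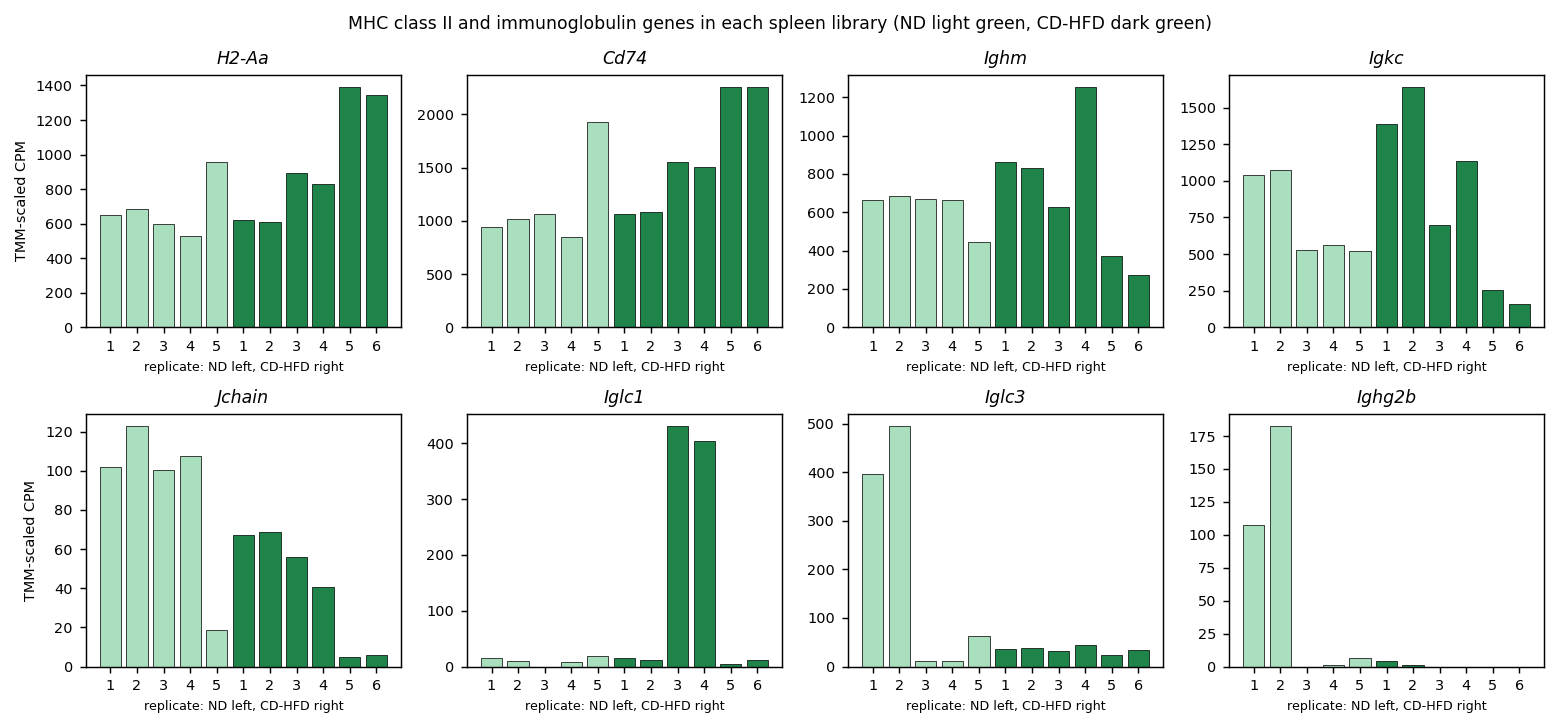
Bars give TMM-scaled CPM of 8 genes in each of the 11 spleen libraries, ND on the left and CD-HFD on the right, with replicate numbers on the x axis. H2-Aa and Cd74 are highest in CD-HFD replicates 5 and 6 where Ighm and Jchain are lowest of that group, and Iglc1, Iglc3 and Ighg2b are each high in a pair of neighbouring libraries.

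Outside the 10 genes studied, those whose pattern was most like that of H2-Aa, by correlation of group-centred log2 CPM over the 32 libraries, were Ly86 (r = 0.769), Ctsh (0.722), Ccnd1 (0.706), Mpeg1 (0.654), H2-DMb1 (0.621) and Plac8 (0.619). For Ly6d they were Cox6a2 (0.769), Plac8 (0.768), Tyrobp (0.767), Tsc22d1 (0.761), Mpeg1 (0.741) and Rnase6 (0.729). Both orders leaned on ND CXCR6pos replicate 6, without which Cox6a2 was at 0.455 and Mpeg1 at 0.43 with Ly6d and Ctsh at 0.568 with H2-Aa. For Igkc the closest were Lrwd1 (0.657), Ppp4r3b (0.645), Plcxd2 (0.643), Ilvbl (0.637), Gm7964 (0.632) and Cisd2 (0.63). For Cd79b they were Rrm1 (0.726), Rps6kb2 (0.695), Gm4987 (0.685), Ndufc2 (0.683), Mrpl17 (0.668) and Med19 (0.662). These values were the highest among the genes that passed the filter, the 10 studied left out, and carry no test. Among the 10, H2-Ab1 was at 0.868 and Cd74 at 0.686 with H2-Aa, H2-Eb1 at 0.746 with Ly6d, and Jchain at 0.66 with Igkc.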

How the data were processed

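Polyadenylated RNA was sequenced from its 3′ end with oligo-dT primers that carried barcodes and unique molecular identifiers, per the labels' protocols. The table that the authors deposited holds raw counts for each gene symbol. Per the submitters' processing notes, the authors used the genome build GRCm38.p6 and DESeq2 1.14.1. Aligner, annotation, strand setting and any collapsing of identifiers were not given in the sources used here. Counts of overlapping genes and near-identical immunoglobulin copies are therefore uncertain. The symbols were matched to GENCODE M21 for coordinates.

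Of the columns, 34 matched a sample by name, 1 matched none and was not used, and 2 with identical counts were left out. CD-HFD CXCR6pos replicate 6 was not analysed here. The 32 libraries of 6 groups were fitted together in edgeR 4.0.16 under R 4.3.3 (quasi-likelihood test, robust, TMM, filterByExpr by group, no block). Benjamini-Hochberg adjustment ran over 6174 genes with a threshold of 0.05, and SE is the log2 fold change over the square root of F. Correlations used log2 CPM with a prior count of 2. The script was tested on simulated data.

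The members and lists were chosen with earlier results of these data known. All 10 genes were named in every comparison they could be tested in or summarised with their group. From each other list up to 4 genes with the smallest p among those past the threshold and up to 4 with the highest mean were allowed, and 6 genes of highest correlation for each of 4 genes. Defining markers with no count and immunoglobulin genes of the spleen libraries were named after their values were seen. Alternatives were RLE scaling, no filter, DESeq2 1.42.0, a fit of the compared groups alone, the replicate block, identical columns kept, and leaving out libraries.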

Additional observations from a re-analysis of the deposited data

Results flagged for a closer look

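In 9 of 58 sets of 4 to 6 libraries, the highest or lowest library lay so far from the nearest other that the gap passed Dixon's 95% critical value. For independent values with a normal spread, chance gives about 5% of such sets. Here the sets share libraries and some hold few counts, so the 5% does not measure chance for them.

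Of these, 4 were the library labelled ND CXCR6pos replicate 6. It held 747 CPM of Cd74 (nearest other library 82.9), 506 CPM of H2-Ab1 (nearest 148), 153.5 CPM of H2-Eb1 (nearest 35.5) and 224 CPM of Ly6d (nearest 17.8).

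Another 3 were ND spleen replicate 5. It held the most Cd74 of its group at 1925 CPM (nearest 1061), the least Ighm at 445 CPM (nearest 664) and the least Jchain at 18.8 CPM (nearest 100.4).

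ND spleen replicate 2 held 52.9 CPM of Cd79b (nearest 37.6). CD-HFD CXCR6pos replicate 2 held 3.38 CPM of Cd79a, which is a single count where the other libraries of the group had 0.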

How the results depend on the processing

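Of 774 results for a gene called in a comparison under an alternative, 720 kept direction and call, 54 kept direction and lost the call, and 0 reversed. Libraries were not paired by replicate number, since same-number correlations of deviations were low, between -0.062 and 0.084. Low values at this depth cannot exclude shared animals. With the replicate number as a block and only the compared groups in the fit, the number of the 9 genes called was 6 for CXCR6pos against CXCR6neg under ND (0 as reported), 3 for diet in CXCR6pos (0), 2 for diet in spleen (0) and 5 for CXCR6neg against spleen under CD-HFD (8). In that ND fit, CXCR6pos replicates 1 and 6 had no CXCR6neg library of the same number, so they did not inform the difference. The fit of the compared groups without the block and DESeq2 each called 1 for diet in CXCR6pos. With neighbouring libraries summed, chosen after seeing the data, the counts were 3 for CXCR6pos against CXCR6neg under CD-HFD (5), 5 for CXCR6neg against spleen under CD-HFD (8) and 3 under ND (7). With the identical library kept, CXCR6neg against spleen under ND gave 3 in the liver group and 2 in both groups. Leaving out 1 library at a time gave 4 to 4 for CXCR6pos against CXCR6neg under CD-HFD and 0 to 4 under ND, 0 to 1 for diet in CXCR6pos, and 5 to 7 for CXCR6neg against spleen under ND. Without ND CXCR6pos replicates 1 and 6 together, also chosen after seeing the data, CXCR6pos against CXCR6neg under ND gave 4. Apart from the summed fits and the fit without ND CXCR6pos replicate 6, shares of all genes called are not given for these alternatives. Their counts therefore show how calls moved and not a result about the 9 genes. The causes were not tested. Depth limits Cd79a, Jchain in the liver and every gene in ND CXCR6pos replicate 1.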
